A study of Mus musculus with 2 samples.

Results

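The genes encoded in mouse mitochondrial DNA (mtDNA) were taken as every gene whose symbol begins with mt-, which gave 37 of the 43346 gene rows in each library. They are 13 messenger RNAs (mRNAs), 2 ribosomal RNAs (rRNAs) and 22 transfer RNAs (tRNAs), and on GRCm38, the assembly also called mm10, all 37 lie on chromosome M. RNA came from skeletal muscle of the B6NCrl mouse strain on postnatal day 0, in 1 group of 2 libraries that the labels number as biological replicates 1 and 2. Each library was made from 13 pg of total RNA, which the labels equate with 1 cell, taken from a portion of the organ of 1 pup. It is therefore a dilution of tissue RNA and not an isolated cell, although the assay is labelled as single cell RNA-seq. Per the labels, RNA was extracted with the mirVana kit, molecules in the size range above 200 were used, the protocol was SmartSeq and spike-in RNAs were added. Sex was not collected, and the records name separate tissue portions but a single donor entry for both replicates. Animals, portions and libraries thus cannot be told apart in the spread between the replicates, and with 2 libraries of 1 kind there is no condition to compare, and no test was run.

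Mitochondrial DNA is a small circle, whose strands, called heavy and light, are each copied into long RNAs that carry many genes. The tRNAs lie between most of the mRNAs and rRNAs and are cut out, which releases the other RNAs. Every mtDNA mRNA codes for a subunit of the machinery of oxidative phosphorylation, where it is joined by subunits encoded in the nucleus, and the rRNAs and tRNAs serve to translate these mRNAs inside the mitochondrion. Muscle fibres are rich in mitochondria.

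Values are in TPM, a level per length scaled to a fixed sum in each library, and are given as replicate 1 and then replicate 2, or as a mean with the SD over n = 2 libraries. Replicate 1 held 32103374 expected counts and replicate 2 held 38977618, of which 1670852 and 974277 were on spike-ins. On the TPM scale spike-ins took 9.44% and 4.54%. The tissue label was met by its markers, with 5 of 5 skeletal muscle genes detected and a summed level of 102739 and 99320 TPM. The heart gene Myh6 stood at 0.18 and 0.10 TPM and Nppa at 0, and in brown fat, another tissue rich in mitochondria, the defining gene Ucp1 was at 0 in both libraries. Cidea, also of the brown fat list, stood at 99.7 TPM in replicate 1 and 0 in replicate 2. The red cell gene Hbb-bs stood at 991 and 909 TPM and Alas2 at 0.11 and 0.04. The part of these other cells in the mtDNA levels was not tested, and in tissue RNA fewer cells of a type and less RNA per cell cannot be told apart.

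Detection required 5 or more expected counts and a TPM of 1 or more. Of the 37 genes, 15 were detected in both libraries: all 13 mRNAs and both rRNAs. Among all 41128 gene rows that could take reads, 10.6% were detected in both. The remaining 22 genes, all tRNAs, had 0 expected counts, and their rows could hold none. The files subtract 99 bases from each row's length to give the effective length, the number of positions at which a stretch of 100 bases can lie, and the tRNA rows are only 59 to 75 bases long. Their effective length was 0, as it was for 2218 gene rows in all, none of which held a count. The shortest and the longest tRNA row show how little sequence is at stake. They are the tRNA for one serine codon family, mt-Ts2 at chrM:11613-11671, and that for one leucine family, mt-Tl1 at chrM:2676-2750, both on the plus strand. These and the other sequences are from the transcripts of GENCODE M21 on GRCm38 and are written 5′ to 3′.
mt-Ts2: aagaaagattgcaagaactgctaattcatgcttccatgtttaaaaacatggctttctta
mt-Tl1: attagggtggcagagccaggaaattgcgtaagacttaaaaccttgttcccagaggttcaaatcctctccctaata
Of the tRNA genes 14 are annotated on the strand of most mRNAs, namely mt-Td, mt-Tf, mt-Tg, mt-Th, mt-Ti, mt-Tk, mt-Tl1, mt-Tl2, mt-Tm, mt-Tr, mt-Ts2, mt-Tt, mt-Tv and mt-Tw. The other 8 are mt-Ta, mt-Tc, mt-Te, mt-Tn, mt-Tp, mt-Tq, mt-Ts1 and mt-Ty. The letter after mt-T gives the amino acid. Their zeros say nothing about tRNA levels in muscle.

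Several of the mRNAs have a near-identical counterpart in the nuclear genome. All M21 transcripts of the other genes that have a gene row here, 126428 in number, were searched for any stretch of 100 bases that also occurs in an mtDNA gene. Only 10 gene rows held one, 7 on chromosome 1 and 3 on chromosome 2, all in the same orientation, and no such stretch was shared between mtDNA genes. The chromosome 1 rows are unprocessed pseudogenes on the minus strand that lie side by side in the order of the mtDNA map, from Gm29216 at chr1:24615706-24616197 to Gm28439 at chr1:24611535-24612410. Between them lie Gm28661 (chr1:24614885-24615565), Gm10925 (chr1:24613974-24614651), Gm28437 (chr1:24613189-24613971), Gm28438 (chr1:24612775-24613119) and Gm10222 (chr1:24612407-24612700). They match mt-Co1, mt-Nd4, mt-Co2, mt-Atp6, mt-Co3, mt-Nd3 and mt-Nd4l in that order of naming.

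The ends of these pairs are printed because they hold almost all that distinguishes the rows. Gm28437, Gm28661, Gm10925 and Gm10222 each showed 0 differences from their mtDNA gene and stopped 1 to 3 bases before its end, and Gm28438 differed at 1 base, T3C, counted from 1 at the 5′ end of mt-Nd3. Capitals mark the mtDNA bases that the copy row lacks. They complete a TAA stop codon, or in mt-Co3 they are a lone T, to which the poly(A) tail is known to add the rest of the stop codon. The mtDNA genes shown are mt-Co3 (chrM:8607-9390), mt-Co2 (chrM:7013-7696), mt-Atp6 (chrM:7927-8607), mt-Nd3 (chrM:9459-9806) and mt-Nd4l (chrM:9877-10173), all on the plus strand.
mt-Co3 end: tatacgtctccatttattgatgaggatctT
Gm28437 end: tatacgtctccatttattgatgaggatct
mt-Co2 end: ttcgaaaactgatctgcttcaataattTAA
Gm28661 end: ttcgaaaactgatctgcttcaataatt
mt-Atp6 end: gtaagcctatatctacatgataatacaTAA
Gm10925 end: gtaagcctatatctacatgataataca
mt-Nd3 end: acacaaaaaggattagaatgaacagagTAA
Gm28438 end: acacaaaaaggattagaatgaacagag
mt-Nd4l end: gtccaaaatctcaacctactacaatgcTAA
Gm10222 end: gtccaaaatctcaacctactacaatgc
Of the stretches of 100 bases, 1 of 685 in mt-Co3 was its own and the others occurred in Gm28437 too. In mt-Co2 and in mt-Atp6 3 stretches were their own, of 585 and 582. In mt-Nd4l 3 of 198 were, and in mt-Nd3 6 of 249.

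mt-Co1 (chrM:5328-6872, plus strand) and mt-Nd4 (chrM:10167-11544, plus strand) stood apart from the other pairs. Gm29216 spans only the last 492 of the 1545 bases of mt-Co1, so 1066 of 1446 stretches of mt-Co1 were its own. It differs at 6 bases near its own start, T1056A, C1057T, A1059G, A1060G, C1062A and A1066T, counted from the 5′ end of mt-Co1, shown in capitals from base 1054 of mt-Co1 and base 1 of the copy.
mt-Co1 from base 1054: ggTCtAAcCggaAttgttttatccaactca
Gm29216 from base 1: ggATtGGcAggaTttgttttatccaactca
Gm28439 is identical to the first 876 bases of mt-Nd4, which has a further 502 bases of its own. mt-Nd1, mt-Nd5, mt-Nd6, mt-Cytb, mt-Atp8 and both rRNAs shared no stretch of 100 bases with another gene row. The 3 rows on chromosome 2, Gm13341, Gm13340 and Gm13339, were assigned 143 and 157 expected counts in all. They share 88 of 585 stretches of mt-Co2, 80 of 1446 of mt-Co1 and 30 of 939 of mt-Nd2.

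The deposited counts were split between mtDNA rows and copy rows very unequally from pair to pair. mt-Co3, a core subunit of cytochrome c oxidase (complex IV), held 17.6% and 18.2% of the counts of its pair. mt-Co2, which takes electrons from cytochrome c in the same complex, held 34.2% and 50.7%. mt-Atp6, which forms the proton channel of the ATP synthase (complex V) with the c ring, held 95.2% and 95.7%, although its pair is as alike as the pair of mt-Co3. The subunits of complex I, the NADH dehydrogenase, ranged widely. mt-Nd3 held 26.2% and 31.0%, mt-Nd4l 9.26% and 10.4%, and mt-Nd4 99.99% in both. mt-Co1, the catalytic subunit of complex IV that carries its haem a groups, held 79.0% and 73.8%.

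The files also give a posterior mean and SD for each count, from repeated sampling of the same reads, and these show for which rows the split was loose. For mt-Co3 the posterior SD was 65.2% and 65.5% of the posterior mean, and the 95% credible interval of its level ran from 1488 to 10925 TPM in replicate 1 and from 2296 to 13823 in replicate 2. For mt-Co2 the posterior SD was 34.5% and 28.4%, for mt-Nd4l 34.8% and 46.1%, for mt-Atp6 15.2% and 13.97% and for mt-Nd3 9.07% and 6.57%. For mt-Co1 it was only 0.101% and 0.0914%. It was 0 for mt-Rnr1, mt-Rnr2, mt-Atp8, mt-Nd6 and mt-Cytb, which share no such stretch with another row. By posterior means mt-Co3 held 37.2% and 37.04% of its pair in place of 17.6% and 18.2%, and mt-Atp6 held 80.0% and 81.9%. There are no molecular identifiers, and these intervals cover the counting and sharing of reads only, not differences between animals.

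**Figure D1:**
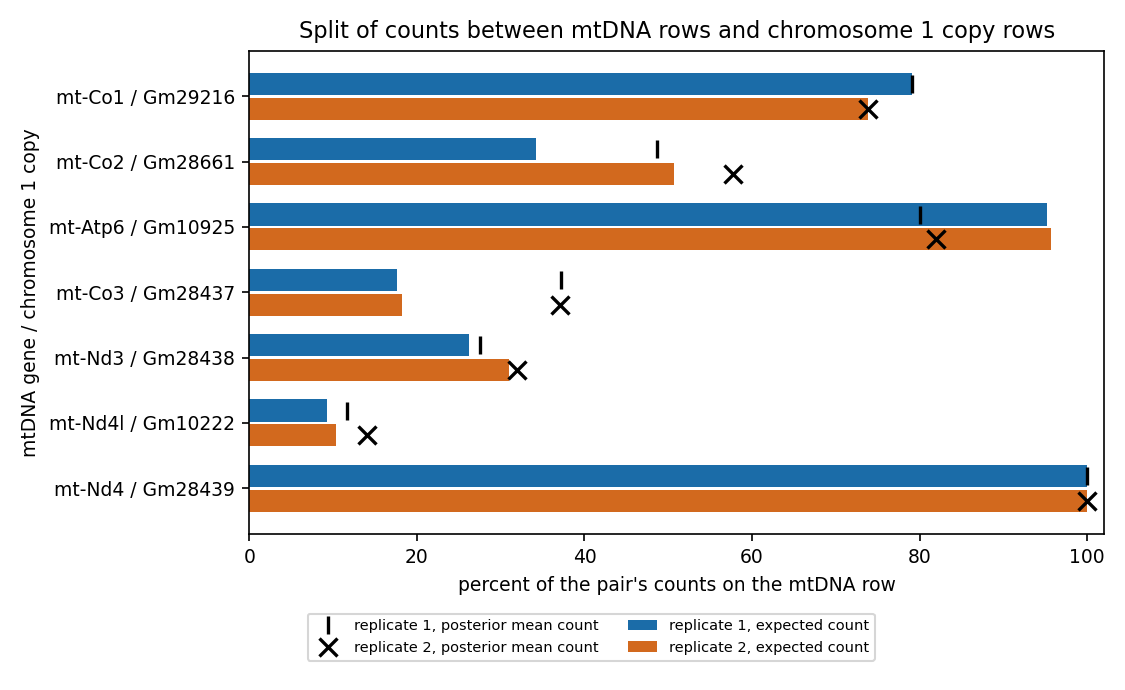
Share of the counts of each pair (x axis, percent) that the deposited files put on the mtDNA row rather than on its chromosome 1 copy row, for 7 pairs (y axis); bars are expected counts and marks are posterior mean counts, in blue or as a vertical line for replicate 1 and in orange or as a cross for replicate 2. mt-Nd4l, mt-Co3 and mt-Nd3 lie at 31.0% or less in both libraries by expected count, while mt-Atp6 and mt-Nd4 lie at 95.2% or more.

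The chromosome 1 rows together held 2.97% and 3.11% of TPM, which equals 51.7% and 51.8% of the TPM of all mtDNA genes. By expected counts they held 35.2% and 37.2% of the mtDNA total. Nearly all of this lay on a few rows. Gm28437 stood at 11801 and 15074 TPM, Gm28661 at 7641 and 4537, and Gm29216 at 6817 and 7636. Gm28438 followed at 2045 and 2461 TPM, Gm10222 at 824 and 757 and Gm10925 at 616 and 652, while Gm28439 held 5.93 and 6.73 expected counts. Whether any of these reads came from chromosome 1 was not tested. Each mRNA with such a counterpart is therefore given in 2 ways, as its row alone and with the counts of the copy row added over its own effective length, a calculation chosen after the data were seen.

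Replicate 1 gave 5.75% of its TPM to the mtDNA genes and replicate 2 gave 6.004%. By expected counts they took 3.50% (95% Wilson interval 3.49 to 3.51%) and 3.68% (3.68 to 3.69%). These intervals treat each read as a separate draw, although there are no molecular identifiers. They cover the counting of reads only and do not show that the libraries differ. Spike-ins are part of the TPM total, at 9.44% and 4.54%. Without them the share of the mtDNA rows was 6.32 ± 0.04%, and the order of the libraries reversed. With the chromosome 1 rows added and spike-ins kept in the total, the share of TPM was 8.72% and 9.12%. The mRNAs made up 5.31% and 5.48% of TPM and the rRNAs 0.44% and 0.52%. The rRNAs together were thus 11.2-fold lower than the mRNAs together, a log2 ratio of −3.58 and −3.39 (−3.49 ± 0.13). With the copy rows added to the mRNAs they were 16.4-fold lower, at −4.13 and −3.94 (−4.04 ± 0.13). By expected counts, in which long genes weigh more, the log2 ratio of the rows alone was −2.55 ± 0.20. mt-Rnr2, the RNA of the large subunit of the mitochondrial ribosome (chrM:1094-2675, plus strand), stood at 3791 and 4534 TPM. mt-Rnr1, the RNA of the small subunit (chrM:70-1024, plus strand), stood at 645 and 689 TPM. A ribosome holds one copy of each. mt-Rnr2 was 6.22-fold higher than mt-Rnr1, a log2 ratio of 2.56 and 2.72 (2.64 ± 0.11), so the order was the same in both libraries. Whether the protocol took up both rRNAs and the mRNAs alike was not tested. These ratios therefore describe the libraries and not the amounts of RNA in muscle.

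Among the mRNA rows alone the subunits of complex V led. mt-Atp6 stood at 12243 and 14327 TPM and ranked 6 among all genes of both libraries. mt-Atp8 (chrM:7766-7969), a small subunit next to it in the membrane part, stood at 9087 and 9810 TPM, ranked 8 and 12. By TPM as deposited, both lie above every other mtDNA mRNA row in both libraries. The upper credible bound of mt-Co3, at 10925 and 13823 TPM, nevertheless lies above the level of mt-Atp8. mt-Nd1 (chrM:2751-3707), a membrane subunit of complex I near the site where quinone binds, followed at 6749 and 6226 TPM. mt-Co1 stood at 6990 and 5856 TPM. mt-Cytb (chrM:14145-15288), which carries the b haems of complex III, stood at 5656 and 4856 TPM. mt-Nd1 and mt-Co1 changed places between the libraries, and mt-Cytb lay below both in each library.

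Further down stood mt-Co2 at 3944 and 4649 TPM and mt-Co3 at 2525 and 3358. Both rows are among those that share nearly all their sequence with a copy row. Most subunits of complex I, which belong to its membrane arm and its proton path, were lower. mt-Nd4 stood at 1661 and 2005 TPM, mt-Nd2 (chrM:3914-4951) at 1562 and 902, and mt-Nd5 (chrM:11742-13565) at 1064 and 747. mt-Nd3 stood at 717 and 1091 TPM and mt-Nd6 (chrM:13552-14070, minus strand) at 779 and 904. mt-Nd2 and mt-Nd5 were higher in replicate 1 and mt-Nd3 and mt-Nd6 in replicate 2, so that these genes overlapped in their ranges. mt-Nd4l was last at 82.8 and 86.3 TPM, with rank 1555 and 1430 among all genes. The highest row exceeded the lowest 148-fold and 166-fold (157 ± 12.8).

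Of 12 neighbours in this order, 7 differed in the same direction in both libraries by a mean above 2 SD of the log2 difference. The 5 that did not were mt-Nd1 and mt-Co1, mt-Cytb and mt-Co2, mt-Nd4 and mt-Nd2, mt-Nd5 and mt-Nd3, and mt-Nd3 and mt-Nd6. The other 7 include mt-Co2 over mt-Co3 and mt-Co3 over mt-Nd4, and the SD leaves out the sharing of reads between rows. By posterior mean TPM mt-Co2 stood at 5501 and 5202 and mt-Co3 at 5209 and 6702, so their order changed between the libraries. In replicate 1 the credible interval of mt-Co3, 1488 to 10925 TPM, took in that of mt-Nd4, 1611 to 1639. Of all 78 pairs of mRNAs, 72 had the same order in both libraries. As a description over 13 mRNAs of the same 2 libraries, the levels of the libraries correlated with a Pearson r of 0.98 on the log2 scale and a Spearman rho of 0.95. Position on the map went with level only loosely. Over the 12 heavy-strand mRNAs, numbered from mt-Nd1 to mt-Cytb, Spearman's rho of level with map order was −0.41 in both libraries.

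**Figure D2:**
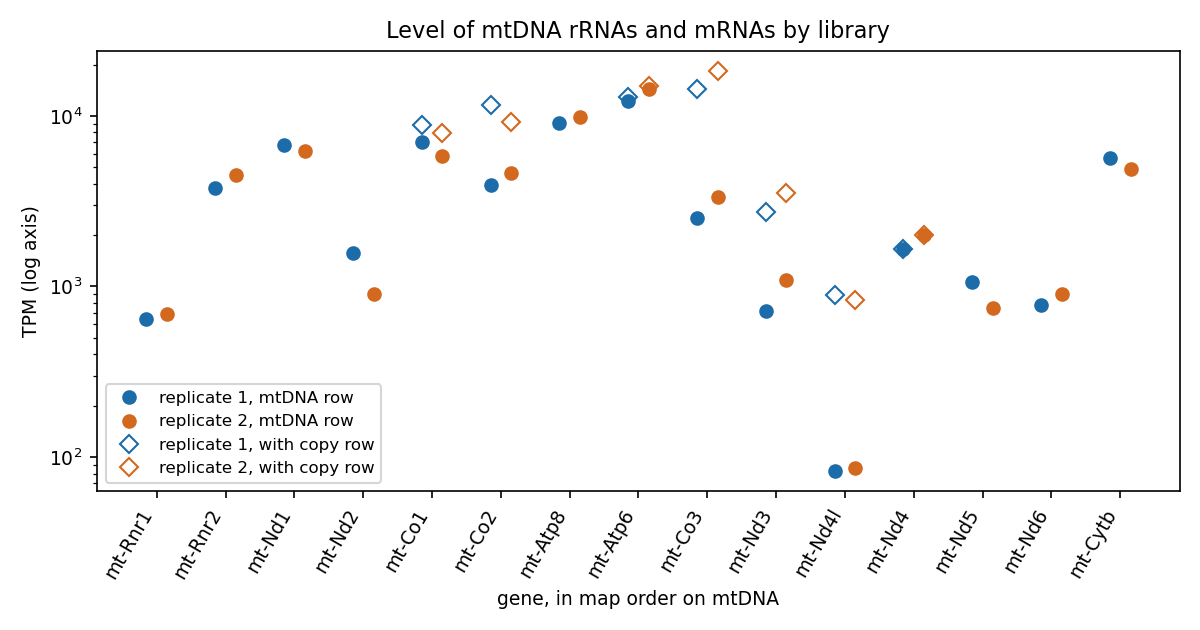
Level of the 15 mtDNA genes with a non-zero effective length (y axis, TPM on a log axis) in map order (x axis), with replicate 1 in blue and replicate 2 in orange; filled circles are the mtDNA row alone and open diamonds the level with the copy row's counts added. mt-Nd4l lies lowest as a row alone, at 82.8 and 86.3 TPM, and at 894 and 832 with its copy row, and mt-Co3 moves from 2525 and 3358 to 14308 and 18410.

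Adding the copy rows changed the order of the mRNAs. mt-Co3 then stood highest, at 14308 and 18410 TPM, 5.56-fold above its row alone. mt-Atp6 came next at 12856 and 14975 TPM, and mt-Co2 at 11546 and 9163, which is 2.41-fold above its row. With its copy mt-Nd4l stood at 894 and 832 TPM, 10.2-fold above its row, and mt-Nd3 at 2738 and 3523, 3.46-fold above. Each of these moves was larger than the fold between the libraries. mt-Co1 rose less, to 8842 and 7931 TPM, and mt-Atp6 and mt-Nd4 stayed within 1.05-fold of their rows. The span from the highest to the lowest mRNA shrank to 18.4-fold and 24.7-fold (21.5 ± 4.45). The order now ran mt-Co3, mt-Atp6, mt-Co2, mt-Atp8, mt-Co1, mt-Nd1, mt-Cytb, mt-Nd3, mt-Nd4, mt-Nd2, mt-Nd5, mt-Nd4l, mt-Nd6, and 5 of 12 neighbours differed by more than 2 SD. Those 5 were mt-Co3 over mt-Atp6, mt-Co1 over mt-Nd1, mt-Nd1 over mt-Cytb, mt-Nd3 over mt-Nd4 and mt-Nd2 over mt-Nd5.

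The largest change was in a pair of genes that are known to stay joined on 1 message. mt-Nd4l and mt-Nd4 overlap by 7 bases, shown in capitals at the end of mt-Nd4l, where the ATG that starts mt-Nd4 lies just before the TAA that ends mt-Nd4l. mt-Atp8 and mt-Atp6, which share a message too, overlap by 43 bases, shown in capitals at the end of mt-Atp8.
mt-Nd4l end, shared with mt-Nd4: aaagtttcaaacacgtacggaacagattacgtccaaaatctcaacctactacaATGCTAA
mt-Atp8 end, shared with mt-Atp6: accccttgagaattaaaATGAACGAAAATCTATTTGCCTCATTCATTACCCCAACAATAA
By the rows alone mt-Nd4l lay 21.3-fold below mt-Nd4, a log2 ratio of −4.31 and −4.52 (−4.42 ± 0.15). With the copy rows added it lay 2.11-fold below, at −0.89 and −1.27 (−1.08 ± 0.26). mt-Atp8 to mt-Atp6 gave −0.43 and −0.55 (−0.49 ± 0.08) and, with the copy, −0.56 ± 0.08. The levels of this pair were thus close under both calculations, with mt-Atp8 lower in each library.

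Ratios among the other genes of that stretch of the map turned with the copy rows. mt-Atp6 and mt-Co3 share 1 base, at chrM:8607. mt-Atp6 was higher by a log2 of 2.28 and 2.09 (2.18 ± 0.13) by the rows alone, and lower with the copy rows, at −0.15 and −0.30 (−0.23 ± 0.10). mt-Co3 to mt-Co1 went from −1.47 and −0.80 to 0.69 and 1.21 (0.95 ± 0.37). mt-Co2 to mt-Co1 went from −0.58 ± 0.35, which did not exceed 2 SD, to 0.38 and 0.21 (0.30 ± 0.12). These 3 ratios thus changed sign between the calculations.

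mt-Nd6 is the only mRNA of the light strand and codes for a membrane subunit of complex I. It lay below the median of the 12 heavy-strand mRNAs by a log2 of −2.05 and −2.15 (−2.10 ± 0.07), or 4.28-fold. With the copy rows the ratio was −2.99 and −2.61 (−2.80 ± 0.27), or 6.98-fold. The direction was the same in both libraries under both calculations. Whether the protocol took up mt-Nd6 and the heavy-strand mRNAs alike was not tested. Whether reads were counted by strand is not given in the sources used here, so reads of mt-Nd6 and reads of heavy-strand RNA from the same place may not be told apart.

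The mtDNA genes stood at similar levels in both libraries. None of the 15 with an effective length above 0 was past 2-fold, while of all 4872 genes with 10 or more counts in each library 47.5% were. The share is lower among highly counted genes. It was 46.3% of the 3584 genes with a mean count of at least 1000, a group that holds 14 of the 15 mtDNA genes. It was 21.6% of the 454 genes with a mean count of at least 10000, which hold 12 of them. The median absolute log2 ratio was 0.24 for the mtDNA genes, 0.93 for all genes and 0.52 for those above 10000 counts. The mtDNA genes were measured in the same 2 libraries and are not separate replicates, and the difference from other genes was not tested.

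The ratios of replicate 1 to replicate 2 ran from −0.61 on the log2 scale for mt-Nd3 to 0.79 for mt-Nd2, which is 1.73-fold. mt-Nd5 followed mt-Nd2 at 0.51, then mt-Co1 at 0.26, mt-Cytb at 0.22 and mt-Nd1 at 0.12. The other 8 mRNAs and both rRNAs were higher in replicate 2. mt-Co3 stood at −0.41, mt-Nd4 at −0.27, mt-Rnr2 at −0.26, mt-Co2 at −0.24, mt-Atp6 at −0.23 and mt-Nd6 at −0.21, and mt-Atp8, mt-Rnr1 and mt-Nd4l lay nearer to 0. The median of the 13 mRNAs was −0.11, with 5 higher in replicate 1, beside 0.04 for all genes, of which 51.4% were higher there. With the copy rows it was 0.10, with 7 mRNAs higher in replicate 1 and 6 in replicate 2. Between the 2 calculations mt-Nd4l changed sign, from −0.06 to 0.10, and so did mt-Co2. The row of mt-Co2 was at −0.24, its copy row Gm28661 at 0.75 and both together at 0.33.

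Relative to the spike-ins the picture differed. The spike-ins had a median log2 ratio of 0.98, with 23 of 25 higher in replicate 1, and whether equal amounts were added is not given in the sources used here. Centred on them, all 13 mRNAs were lower in replicate 1, with a median of −1.09, beside 75.5% of all genes and 89.6% of those with a mean count of at least 10000. So centred, 10 of the 15 mtDNA genes were past 2-fold, beside 59% of all 4872 genes and 55.7% of the 454 with a mean count of at least 10000. This is a shift of the whole scale, which all other genes share, and it leaves the differences among the mtDNA genes as they were.

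**Figure D3:**
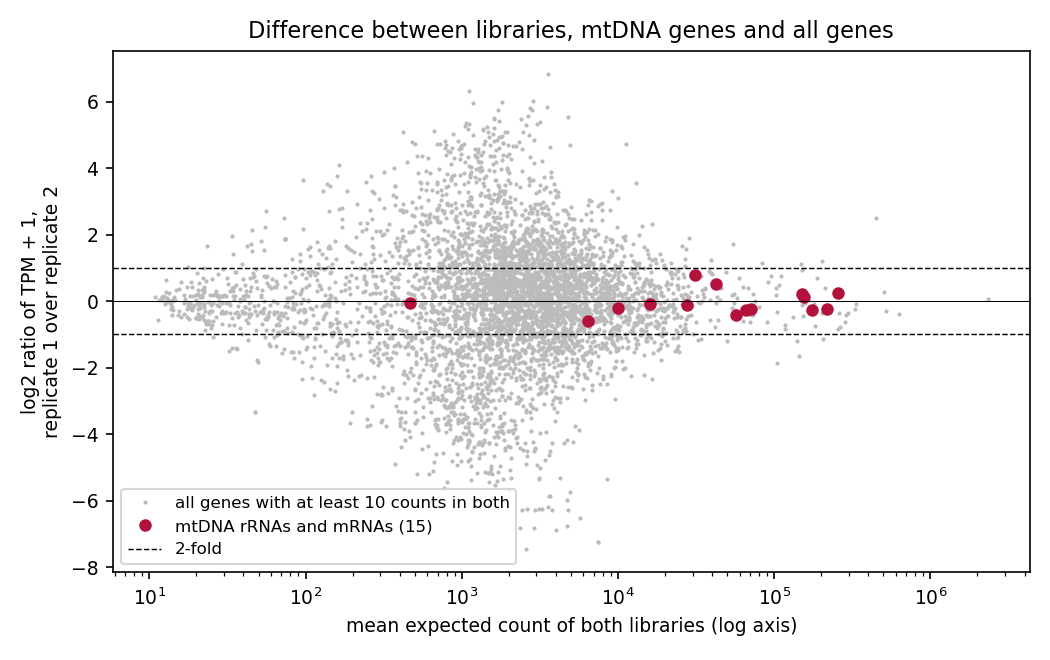
Log2 ratio of TPM + 1 in replicate 1 over replicate 2 (y axis) against the mean expected count of both libraries (x axis, log axis) for all genes that reached 10 counts in each library (grey) and the 15 mtDNA rRNAs and mRNAs (red); dashed lines mark 2-fold. All mtDNA genes lie between −0.61 and 0.79, inside the dashed lines.

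The mtDNA subunits were then set beside 80 nuclear genes for subunits of the same complexes, of which 76 were detected in both libraries (95%, against 10.6% of all rows). In complex V the median mtDNA subunit was 11.3-fold above the median nuclear one, a log2 ratio of 3.79 and 3.20 (3.49 ± 0.42). In complex IV it was 7.14-fold above, at 3.14 and 2.53 (2.84 ± 0.44), and 17.1-fold with the copy rows (4.10 ± 0.84). In complex III mt-Cytb was 5.43-fold above the median of 9 nuclear subunits, at 2.69 and 2.19 (2.44 ± 0.35). In complex I the ratio was 1.61 and 0.65 (1.13 ± 0.68), which did not exceed 2 SD. Within each of complexes III, IV and V every mtDNA subunit stood above every nuclear subunit of the same complex by mean TPM. In complex I 35 of 36 nuclear subunits stood above the lowest mtDNA row, mt-Nd4l. With the copy rows the lowest was mt-Nd6, and 3 stood above it.

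The highest nuclear subunits differed by complex. In complex V they were Atp5b, the catalytic beta subunit, at 3437 ± 1914 TPM, Atp5o of the outer stalk at 1909 ± 38.1 and Atp5g1 of the c ring at 1717 ± 619. In complex III they were the small subunits Uqcr11 at 1514 ± 654, Uqcrh at 1274 ± 154 and Uqcr10 at 1204 ± 144. In complex IV they were Cox6b1 at 1522 ± 440, Ndufa4 at 1243 ± 498 and the muscle form Cox6a2 at 1140 ± 370. In complex I they were the accessory subunits Ndufc1 at 1172 ± 293, Ndufb9 at 956 ± 333 and Ndufb8 at 951 ± 203. By mean TPM of the rows alone, these complex I subunits lay below mt-Nd1, mt-Nd4 and mt-Nd2. They lay above mt-Nd5, mt-Nd3, mt-Nd6 and mt-Nd4l. The 4 nuclear subunits not detected in both libraries all belong to complex IV. They are the tissue forms Cox4i2, Cox7b2 and Cox8c, with 0 counts in both, and Cox6b2, with 514 and 0.

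mtDNA subunits, as rows alone, held 59.7% and 48.8% of the TPM of complex V. They held 60.02% and 47.7% of complex IV, 45.8% and 33.4% of complex III and 47.1% and 36.4% of complex I. When the copy rows were added, their share was 79.5% and 70.0% in complex IV. It was then 52.1% and 42.0% in complex I and 60.4% and 49.4% in complex V, and unchanged in complex III. The share was lower in replicate 2 each time. The nuclear subunits were mostly higher in replicate 2, with 67 of 76 higher there and a median log2 ratio of −0.61 for replicate 1 over replicate 2. Of all genes 51.4% were instead higher in replicate 1, and of those with a mean count of at least 10000 it was 45.2%. Of the 76 nuclear subunits, 28.9% were past 2-fold, beside 47.5% of all genes and 21.6% of those with a mean count of at least 10000. Of the 13 mtDNA mRNAs 8 were higher in replicate 2 by their rows and 6 with the copy rows. The difference between mtDNA and nuclear subunits in this respect was not tested.

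**Figure D4:**
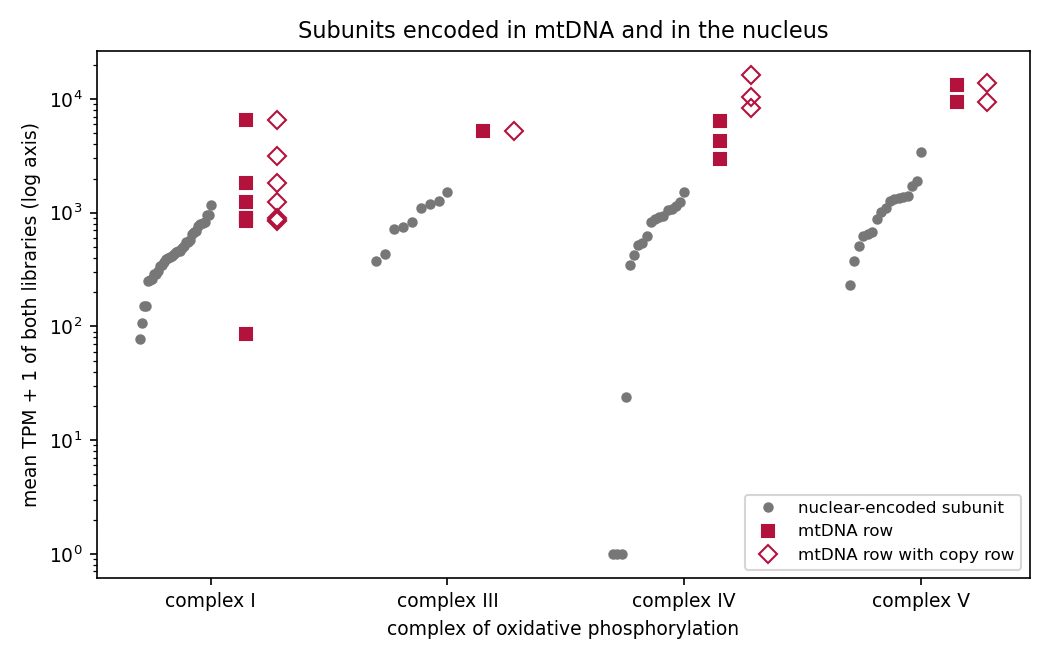
Mean TPM + 1 of both libraries (y axis, log axis) of each subunit of complexes I, III, IV and V (x axis); grey circles are nuclear-encoded subunits in order of level, filled squares mtDNA rows and open diamonds mtDNA rows with their copy row. In complexes III, IV and V every square lies above every circle, while in complex I the lowest square, mt-Nd4l, lies below 35 of 36 circles.

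Genes for the expression and upkeep of mtDNA stood below every mtDNA mRNA row except mt-Nd4l. Of 45 such genes, 12 were detected in both libraries (26.7%, against 10.6% of all rows), 15 in 1 library and 18 in neither. With a minimum of 1 expected count and no TPM minimum, 18 were seen in both libraries. The share of all rows under that looser rule is not given here. By role, 3 of 9 transcription genes, 4 of 13 processing genes, 2 of 8 for stability and decay, 1 of 5 for rRNA modification and 2 of 10 for replication and maintenance were detected in both. The highest was Slirp, which binds and stabilises mtDNA mRNAs, at 137 and 304 TPM (220 ± 118). The transcription elongation factor Tefm stood at 196 and 110 TPM (153 ± 60.7), and Hsd17b10, a subunit of the enzyme that cuts tRNA 5′ ends, at 141 and 135 (138 ± 4.03). The rRNA methyltransferase Nsun4 stood at 48.4 and 93.8 TPM, the RNA polymerase Polrmt at 58.4 and 75.0, and Tfam, which packages mtDNA and starts transcription, at 97.8 and 28.1. By mean TPM all but the 3 highest genes of the list were below mt-Nd4l, the lowest mtDNA mRNA row. With its copy row mt-Nd4l stood at a mean of 863 TPM, above every gene of the list.

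Single genes of this list were seen in one library and not in the other, which no mtDNA mRNA or rRNA was. Lrpprc, the partner of Slirp, had 1 count in replicate 1 and 5210 in replicate 2, and the DNA polymerase gene Polg had 3273 and 0. Both were picked after their values were seen. The list had 13 genes that reached 10 counts in each library, of which 6 were past 2-fold (46.2%, beside 47.5% of all genes). The genes detected in neither library were Mterf1a, Mterf1b, Mterf2, Fastkd1, Fastkd2, Fastkd3, Fastkd5, Supv3l1, Grsf1, Rexo2, Tfb1m, Mrm1, Mrm2, Polg2, Twnk, Top1mt, Tk2 and Rrm2b. Some of them held reads. Grsf1 had 4 and 11 counts and Supv3l1 0 and 13, while Mterf2, Mrm1 and Rrm2b had 1 count in 1 library. The others had 0 in both. At this input of RNA a count of 0 in 1 library did not mean that the other had none. All are therefore listed as below the detection rule rather than as absent from newborn muscle.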

How the data were processed

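The authors deposited expected counts (estimated reads for each gene) and TPM. Column names are RSEM's, per the file headers, and include posterior means, posterior SDs and 95% credible bounds. These bounds, used here as the deposited signal of how far a TPM can move, come from the authors' files. The TPM scale includes spike-ins. Assembly mm10 and GENCODE M4 are per the descriptions deposited with the files, while an aligner and the use of strand were not given in the sources used here. Symbols, coordinates and sequences were taken from GENCODE M21 on GRCm38, which named 42462 of 43346 gene rows.

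Log ratios used log2(TPM + 1), except those of the rRNAs, which used log2 of the values without an addition. Differences counted as larger than the spread if both libraries had 1 sign and the mean was above 2 SD. No test was run: there are 2 libraries of 1 group and no condition to compare. Copy rows were found by exact shared stretches of 100 bases. Named were all mtDNA genes, every chromosome 1 copy row with a count, the 3 highest nuclear subunits of each complex by mean TPM, and of the expression list the 6 highest and those detected in neither library. Any other gene was named after its values were seen. The genes and lists were chosen with earlier results of these data known. Alternatives were posterior means, expected counts, other totals, centring, detection rules and pseudocounts, and leaving out each replicate. Adding copy counts over the mtDNA gene's length and count minimums of 1000 and 10000 for the comparison of libraries were added after the data were seen. The ratio script was tested on simulated data. Software was Python 3.11.15 with pandas 2.3.3, numpy 2.4.6, statsmodels 0.14.6, scipy 1.17.1 and matplotlib 3.10.9.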

Additional observations from a re-analysis of the deposited data

How the results depend on the processing

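Of 58 alternative values over 18 results, not counting those without a replicate, 34 kept their direction and moved by less than the spread, or for counts by at most 1.5 times, 23 moved further and 1 reversed. With copy counts added over the mtDNA gene's length, the median log2 ratio of replicate 1 to replicate 2 over the mRNAs turned from −0.11 to 0.10, the fold from highest to lowest mRNA fell from 157 to 21.5, and the log2 ratios became −4.04 for rRNA to mRNA, −1.08 for mt-Nd4l to mt-Nd4, −2.80 for mt-Nd6 to the heavy-strand median and 4.10 for complex IV. Adding the copy TPM instead gave a fold of 21.5, −1.06 for mt-Nd4l to mt-Nd4, −2.80 for mt-Nd6, 4.51 for complex IV and an mtDNA share of 8.92% in place of 5.88%. Posterior mean TPM gave a fold of 101, log2 ratios of −4.03 for mt-Nd4l to mt-Nd4, −0.25 for mt-Atp8 to mt-Atp6 and −2.65 for mt-Nd6, and a copy total of 45.9% of the mtDNA total. Expected counts gave an mtDNA share of 3.59%, a log2 ratio of rRNA to mRNA of −2.55 and a copy total of 36.2%. Without spike-ins in the total the share was 6.32%. Centring on the median gene moved the median ratio to −0.15, and centring on the spike-ins moved it to −1.09 with 10 genes past 2-fold. Complex IV with nuclear subunits detected in both libraries only gave 2.38. The expression and maintenance genes detected in both libraries went from 12 to 18 at a minimum of 1 expected count without a TPM minimum. With 2 libraries, leaving one out only gives the value of the other, which is given beside each mean, and says nothing of stability. No paired analysis was possible because there is only 1 group. The mtDNA mRNA row with the fewest counts, mt-Nd4l, held 400 and 534.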
